A study of Rattus norvegicus with 9 samples.

Results

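The sham P14 libraries hold the mature miRNAs of the control retina of wild-type Sprague Dawley rats at postnatal day 14. The study sequenced small RNA from dissected retinas in 3 groups of 3 samples: sham P14, OIR P14 and OIR P29, where OIR is oxygen-induced retinopathy and P29 is postnatal day 29. The 3 sham P14 samples of 9 in all are described here, and the retinopathy groups were not used. They were chosen by label and not by any measured value, and their columns were assigned by the tables in which the library codes stand. The labels give the sham animals as controls and do not say what the sham procedure was, or whether a sample is 1 animal or a pool. The libraries carry the codes 25, 27 and 51, and p-values here measure only the spread between these samples, which may be technical in part. Each library gives a read count for 465 mature miRNA names. Totals were 11808893, 12568341 and 12009327 reads in libraries 25, 27 and 51, and 465, 463 and 464 of the 465 names had at least 1 read. A name with no read could lie at up to 0.254, 0.239 and 0.250 CPM (the count scaled to a library total of 1000000) in these libraries, which is 3 counts. That limit, like all intervals here, covers counting error only. A share below is a share of the reads assigned to these 465 names.

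A miRNA is cut from a hairpin transcript. Drosha frees the hairpin, Dicer cuts off its loop, and the short duplex that remains has a strand from the 5′ side of the hairpin (the 5p arm) and a strand from the 3′ side (the 3p arm). Argonaute keeps one strand as the guide, and the other is usually degraded, so the steady level of the arms can differ by orders of magnitude. The guide finds messenger RNAs mainly through its seed, bases 2 to 8 counted from its 5′ end, and miRNAs with the same seed are grouped as a family. In the retina, miR-182, miR-183 and miR-96 are made from one transcript that is strongly expressed in photoreceptors. In mouse, miR-181 family members are found in the inner retina, miR-124 marks neurons, and miR-204 and miR-211 are known from the pigment epithelium, with miR-204 also in Müller glia and the ciliary body.

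The sequences that carry most of the reads are shown with the seed in capitals, 5′ to 3′, taken from RefSeq for the rat assembly GRCr8. The photoreceptor cluster comes first, since its members hold most of the library.
miR-182: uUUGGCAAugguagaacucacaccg
miR-96-5p: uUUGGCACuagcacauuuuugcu
miR-183-5p: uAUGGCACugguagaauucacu
Bases 2 to 7 are the same in miR-182 and miR-96-5p, and the seed of miR-183-5p differs from both. The 5p arms of the miR-181 family are the next most abundant group, and they share a whole seed.
miR-181a-5p: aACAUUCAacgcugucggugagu
miR-181b-5p: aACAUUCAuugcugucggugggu
miR-181c-5p: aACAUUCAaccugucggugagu
miR-181d-5p: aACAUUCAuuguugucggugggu
Set side by side, with positions counted from 1 at the 5′ end of miR-181a-5p, miR-181b-5p differs from it by A9U, C10U and A21G, all outside the seed. The 2 members of the pigment epithelium family and the 2 most abundant let-7 names are closer still.
miR-204-5p: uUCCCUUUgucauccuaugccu
miR-211-5p: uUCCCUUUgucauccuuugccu
let-7f-5p: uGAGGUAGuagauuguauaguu
let-7a-5p: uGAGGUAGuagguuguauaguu
miR-211-5p differs from miR-204-5p by A17U, and let-7a-5p differs from let-7f-5p by A12G, each counted from the 5′ end of the name given second in its clause. The sources used here do not say how a read that fits more than 1 such name was counted.

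A single miRNA held most of the reads. miR-182 had 7590368, 7933914 and 7507748 reads in libraries 25, 27 and 51, a share of 63.3% ± 0.894 (SD, n = 3). miR-181a-5p was second with 1508079, 1344999 and 1654626 reads, or 12.4% ± 1.57. miR-183-5p came next with 789669, 992829 and 763356 reads, or 6.98% ± 0.812. These 3 names held 82.7% ± 1.0 of all reads, and their order was the same in every library with no overlap of their ranges. The remaining member of the cluster, miR-96-5p, was far lower at 0.355% ± 0.0499, although it comes from the same transcript. Its reads were outnumbered by those of miR-182 by a factor of 181, 156 and 205 in libraries 25, 27 and 51, and by those of miR-183-5p by 18.8, 19.5 and 20.8. Summed over their arms, the 3 hairpins of the cluster made 70.7% ± 1.27 of the reads. Counts of different miRNAs, and of different arms, also carry the biases of adapter ligation, amplification and sequencing, which were not corrected, so these factors compare reads and not molecules. For the 20 most abundant names, the 95% Wilson interval of a share in 1 library reached at most 0.0274 percentage points to either side, less than the smallest SD between libraries, 0.0308.

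**Figure D1:**
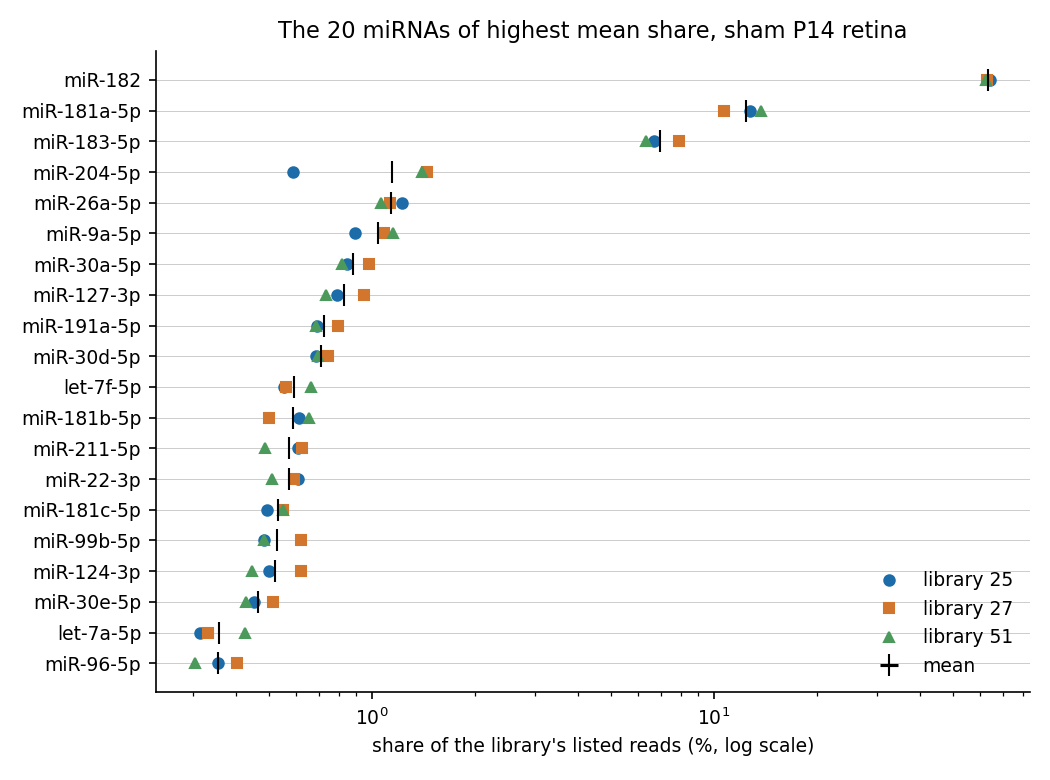
Share of reads of the 20 miRNAs of highest mean share in the sham P14 retina (horizontal axis, percent on a log scale), with 1 symbol per library and a bar at the mean. miR-182 stands at 63.3%, and library 25 lies apart from the other 2 for miR-204-5p.

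After the first 3 names the shares fell to about a percent and below. miR-204-5p had 69678 reads in library 25, 182492 in library 27 and 167978 in library 51, a mean share of 1.15% ± 0.483. It stood at rank 13 in library 25 and at rank 4 in both of the others, the widest range of ranks among the first 30 names. miR-26a-5p, a widely expressed miRNA, made 1.14% ± 0.0805, and miR-9a-5p, known from neural progenitors and neurons, made 1.05% ± 0.134. The next names were miR-30a-5p with 0.881% ± 0.0871, miR-127-3p from the imprinted Dlk1-Dio3 region with 0.827% ± 0.112, miR-191a-5p with 0.725% ± 0.0634 and miR-30d-5p with 0.708% ± 0.0308. let-7f-5p, whose family accumulates as cells differentiate, made 0.593% ± 0.0632, close to miR-181b-5p at 0.589% ± 0.0803. miR-211-5p, miR-22-3p, miR-181c-5p, miR-99b-5p and the neuronal miR-124-3p followed with 0.574%, 0.571%, 0.532%, 0.529% and 0.523% in that order. miR-30e-5p at 0.464%, let-7a-5p at 0.358% and miR-96-5p closed the first 20. Of these 20 names 16 were 5p arms, 3 were 3p arms, and miR-182 carries no arm suffix in the files.

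The membership of the top ranks was steady and the order inside it was not. The same 20 names and the same 30 names were the highest in every library. Among the 30 steps from one rank to the next, the shares of the neighbours did not overlap over the 3 libraries in 9, and the higher name was higher in every library in 13. Below rank 3 the ranges were separate between miR-30d-5p and let-7f-5p, between miR-30e-5p and let-7a-5p, and between miR-96-5p and miR-378a-3p. They were also separate between let-7g-5p and miR-30c-5p, between miR-27b-3p and miR-26b-5p, and between miR-101a-3p and miR-21-5p. Every pair of neighbours from rank 4 to rank 10, and from rank 11 to rank 18, overlapped in range. miR-181b-5p stood at rank 10 in library 25, rank 18 in library 27 and rank 12 in library 51, while its share lay between 0.50% and 0.655%.

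The number of names that hold most of the reads was small. 1 name held over 50% of the reads in each library, 11, 12 and 12 names held 90%, and 73, 77 and 75 names held 99%. The effective number of miRNAs, the exponential of the Shannon entropy of the shares, was 5.30, 5.78 and 5.63. The first 10 names held 89.2% ± 0.305 and the first 20 held 94.3% ± 0.149. By level, 6 names over 10000 CPM held 86.0% ± 0.562 of the reads and 30 names from 1000 to 10000 CPM held 11.2% ± 0.483. Another 70 names from 100 to 1000 CPM held 2.18% ± 0.0797 and 143 names from 10 to 100 CPM held 0.486% ± 0.0246. The remaining 216 names, under 10 CPM, together held 0.0725% ± 0.00268. When the reads of miR-182 were left out of the total, 2 names held 50%, 27, 29 and 28 names held 90%, and the effective number was 17.2, 19.6 and 17.2. The few lowest names had single-digit counts. miR-3072 had 2, 1 and 1 reads and miR-3552 had 6, 0 and 1. miR-6321 had 67 reads in library 25 and none in libraries 27 and 51.

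**Figure D2:**
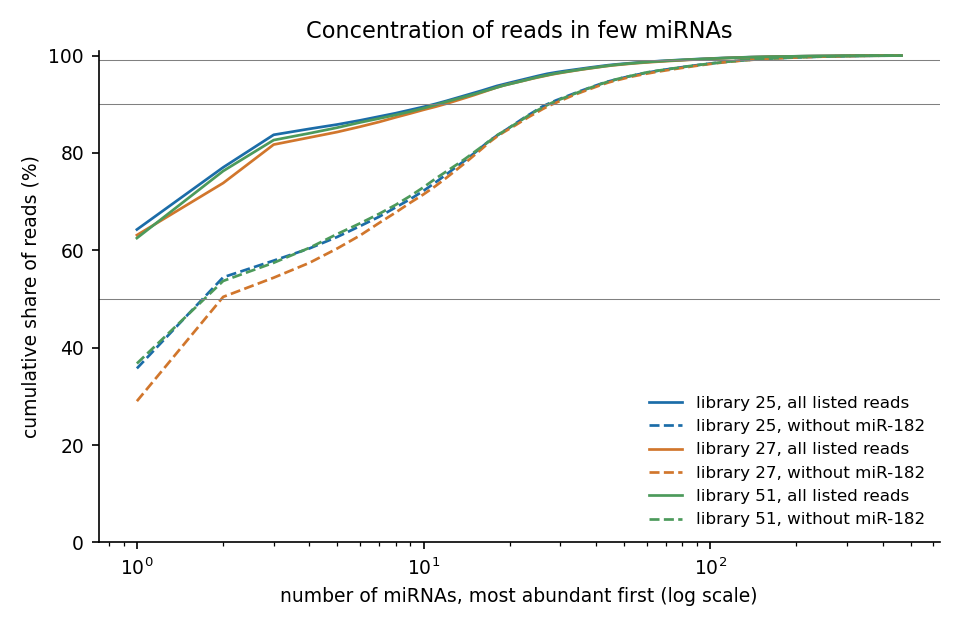
Cumulative share of reads (vertical axis, percent) against the number of miRNAs from the most abundant on (horizontal axis, log scale), 1 line per library, with all listed reads and without miR-182. In each library 1 name exceeds 50% of all reads, and 2 names do once miR-182 is left out.

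Summed into families by name, with both arms of every member, 222 families were listed, 90 of them with 1 name, and the 10 largest held 94.2% ± 0.251 of the reads. The miR-96/miR-182 family held 63.7% ± 0.912, the miR-181 family 13.7% ± 1.66 and miR-183 7.01% ± 0.814. The miR-30 family followed with 2.46% ± 0.182 over 11 names, the miR-204/miR-211 family with 1.72% ± 0.464 and the let-7/miR-98 family with 1.66% ± 0.203 over 20 names. The miR-26, miR-9, miR-127 and miR-191 families held 1.31% ± 0.0770, 1.06% ± 0.136, 0.832% ± 0.112 and 0.726% ± 0.0635. Some families rest on one member and others are spread. miR-181a-5p made 90.4% ± 0.632 of the miR-181 reads, with miR-181b-5p at 4.28%, miR-181c-5p at 3.92% and miR-181d-5p at 0.391%. miR-26a-5p made 86.7% ± 1.32 of its family. The reads of the miR-30 family were divided among miR-30a-5p with 35.8%, miR-30d-5p with 28.9%, miR-30e-5p with 18.9%, miR-30c-5p with 8.84% and miR-30b-5p with 4.95%. The let-7/miR-98 family was divided among let-7f-5p with 35.9%, let-7a-5p with 21.5%, let-7g-5p with 15.8%, let-7c-5p with 9.60% and let-7i-5p with 7.01%, the rest being under 4% each. Within these families the division among members changed little between libraries, with SDs of at most 1.32 percentage points. The miR-204/miR-211 family was the exception. miR-204-5p made 49.3%, 69.8% and 74.1% of it in libraries 25, 27 and 51, and the ratio of miR-204-5p to miR-211-5p was 0.973, 2.32 and 2.87.

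Grouping by the seed itself gave the same leading groups, except that miR-182 and miR-96-5p, joined by name above, were split. Their seeds differ at base 8. Of the 465 names, 423 had a RefSeq sequence, and these carried 98.1% ± 0.144 of the reads. They fall into 346 seeds, of which 298 belong to 1 name. The seed UUGGCAA of miR-182 carried 63.3% of the reads, and ACAUUCA, shared by the 5p arms of miR-181a, miR-181b, miR-181c and miR-181d, carried 13.6% ± 1.65. AUGGCAC of miR-183-5p carried 6.98%, UCCCUUU of miR-204-5p and miR-211-5p carried 1.72% ± 0.464, and GAGGUAG of 9 let-7/miR-98 names carried 1.63% ± 0.202. GUAAACA carried 1.57% ± 0.141, and it joins miR-30a-5p, miR-30e-5p and miR-30c-5p with miR-384-5p, a name outside the miR-30 list. miR-30d-5p and miR-30b-5p had no matched sequence, so this share leaves them out. Shares by first base are taken over the 423 matched names and their reads alone, so unmatched names such as miR-30d-5p and miR-124-3p do not enter. A U began 82.7% ± 1.48 of these reads and 39.0% of these names, and an A began 15.4% ± 1.63 of the reads and 29.1% of the names. A C began 1.85% ± 0.165 of the reads and 21.7% of the names, and a G 0.0504% ± 0.00243 of the reads and 10.2% of the names. Without miR-182, U began 51.2% ± 3.96 and A 43.4% ± 4.42 of the matched reads.

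The retinal label was set against lists of cell type markers. All 3 photoreceptor markers were listed, with a summed level of 692039 to 714592 CPM. All 8 markers of retinal neurons and brain were listed, at 126459 to 156205 CPM in sum, most of it miR-181a. Both arms included, miR-181a had a mean of 125408, miR-9 of 10648 and miR-124 of 5320 CPM. The others were far lower: miR-129, miR-138, miR-128, miR-7 and miR-132 averaged 430, 168, 87.5, 61.7 and 16.4 CPM. The value for miR-129 counts both of its 3p names. The glial list summed to 6073 to 14725 CPM, almost all of it miR-204, which is also a pigment epithelium marker. The other glial markers miR-29a, miR-338 and miR-219 averaged 82.9, 73.5 and 3.75 CPM. Vessel markers were present, with the endothelial miR-126a at 622 to 767 CPM and the mural cell markers miR-143 and miR-145 at 1129 to 1364 CPM in sum. Of the erythroid list, miR-486 averaged 1123 CPM, while the erythroid markers miR-451 and miR-144 averaged 5.35 and 2.72 CPM. Leukocyte markers summed to 48.9 to 64.2 CPM, muscle markers to 8.55 to 11.7 CPM and epithelial miR-200 family markers with miR-203 to 7.33 to 10.1 CPM. miR-375, an endocrine marker, had 214 to 319 CPM. The liver marker miR-122 is not among the listed names, nor are miR-126b and miR-206.

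Some markers of neighbouring tissue varied between the libraries. The pigment epithelium pair miR-204 and miR-211 summed to 11980 CPM in library 25, 20799 in library 27 and 18884 in library 51. Within it miR-211 stayed at 6078, 6276 and 4894 CPM, so that the range came from miR-204. The cornea and lens list summed to 42.4, 51 and 172 CPM, and in it miR-184 had 215, 366 and 1731 reads in libraries 25, 27 and 51. The other members did not share this range, with 20.3, 20.8 and 24 CPM for miR-31a and 3.90, 1.11 and 3.91 CPM for miR-205. Whether adjoining tissue in the dissections has a part in these values was not tested. In whole retina, fewer cells of a type and less of an miRNA per cell cannot be told apart.

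The arms of a hairpin were compared within each library for the 161 precursors with both arms listed. These were 143 precursors whose arm names have the same stem and 18 with a hairpin copy number in an arm name. They hold 332 names with 34.6% ± 0.955 of the reads. Where more than 1 numbered copy of an arm was listed, the copies were summed. In others of the 18, such as let-7a and miR-92a, a single numbered copy is listed against an unnumbered arm. That arm can come from several hairpins, as let-7a-5p does from 2, so such a ratio can set several hairpins against 1. miR-182 is not among the 161 precursors, since no partner arm is listed for it. The question was whether the reads of the 5p arm and those of the 3p arm differ beyond the spread between libraries, by edgeR's quasi-likelihood test with the library as a block and Benjamini-Hochberg adjustment over the 161 precursors. The 5p arm was higher in 87 precursors, or 54.0% of those tested, and the 3p arm in 68, or 42.2%, so that 96.3% were called at an adjusted p under 0.05. This background is so high that a call by itself says little, and the size of the ratio is what separates the precursors. The larger arm exceeded the other more than 2-fold in 141 precursors, more than 10-fold in 91 and more than 100-fold in 34, of which 22 were led by the 5p and 12 by the 3p arm. The median size of the log2 ratio was 3.59, with a median standard error (SE) of 0.17, and the median signed log2 ratio was 1.35. In 156 of 161 precursors the same arm was higher in every library. The minor arms of these precursors held 1.60% ± 0.0137 of the precursors' reads.

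**Figure D3:**
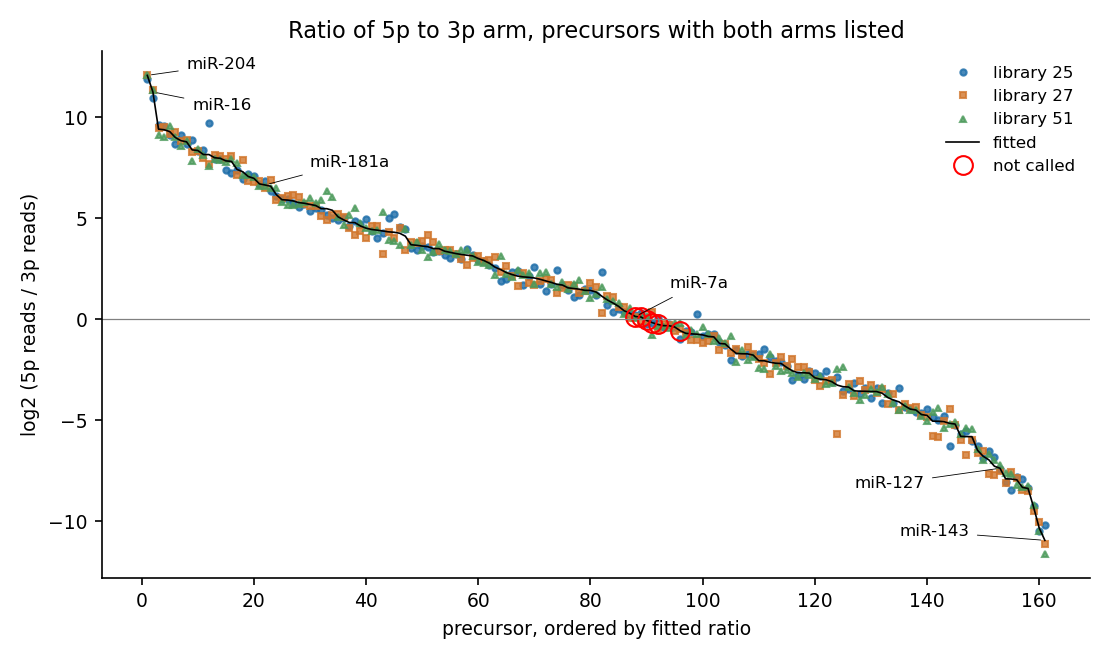
Log2 ratio of 5p to 3p reads (vertical axis) for the 161 precursors with both arms listed, in the order of the fitted ratio (horizontal axis), with 1 symbol per library (0.5 added to each count), a line for the fitted ratio and circles for the 6 precursors that were not called. The range runs from 12.07 for miR-204 to -10.94 for miR-143.

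The most abundant precursors were almost all read from 1 arm. The miR-181a precursors gave 1508079, 1344999 and 1654626 reads from the 5p arm and 13152, 14748 and 17250 reads from the 3p arms in libraries 25, 27 and 51. The 5p arm was 100-fold higher (log2 6.65 ± 0.14 SE; edgeR quasi-likelihood adjusted p = 2.95e-31). miR-183, of the photoreceptor cluster, had 789669, 992829 and 763356 reads on the 5p arm against 3248, 3593 and 3103 on the 3p arm, 255-fold more. miR-96 of the same cluster had 41914, 50828 and 36640 reads on the 5p arm against 54, 68 and 71 on the 3p arm, 665-fold more. The 5p arm also led in miR-9a (53.5-fold, log2 5.74 ± 0.12), miR-30a (59.6-fold), miR-30d (104-fold) and miR-191a (440-fold). miR-127 was the only one of the 8 most abundant precursors led by its 3p arm, with 546, 666 and 596 reads on the 5p arm and 93419, 119647 and 88500 reads on the 3p arm (log2 -7.37 ± 0.13, adjusted p = 1.24e-33 by edgeR's quasi-likelihood test). The neuronal miR-124 was likewise read mostly from its 3p arm, with 913, 1245 and 1229 reads on the 5p arm and 59026, 78050 and 53728 reads on the 3p arm. A minor arm of an abundant hairpin could still outnumber most miRNAs. miR-181a-1-3p averaged 1065 CPM, which placed it at rank 36 of 465, and miR-183-3p averaged 273 CPM at rank 63.

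The largest ratios were found in miR-204 and miR-143. Both arms of miR-204 are shown again, since their ratio was the largest of all.
miR-204-5p: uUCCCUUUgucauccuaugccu
miR-204-3p: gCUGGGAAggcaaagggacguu
The 5p arm of miR-204 had 69678, 182492 and 167978 reads and its 3p arm 18, 41 and 38 reads in libraries 25, 27 and 51, a 4298-fold difference (log2 12.07 ± 0.17; edgeR quasi-likelihood adjusted p = 5.62e-36). The level of miR-204-5p differed 2.46-fold between libraries, and the 5p arm made 99.97% to 99.98% of the reads of the hairpin in each. At so large a ratio this percentage has little room to vary. The SD of the log2 ratio over the libraries was 0.126, with no more than 41 reads on the 3p arm. miR-16, a broadly expressed regulator of the cell cycle, followed with 33167, 34581 and 35489 reads on the 5p arm and 16, 13 and 13 on the 3p arm (log2 11.25 ± 0.21). Next among precursors with a mean of at least 1000 reads were miR-125a (log2 9.41), miR-96 (9.38), let-7g (9.29) and miR-99b (8.99). At the other end, miR-143, a miRNA of smooth muscle and mural cells, had 11, 7 and 4 reads on the 5p arm and 13145, 16853 and 14079 on the 3p arm (log2 -10.94 ± 0.22, adjusted p = 5.76e-32 by edgeR's quasi-likelihood test). miR-22 had 49, 70 and 42 reads on the 5p arm and 71795, 74661 and 61475 on the 3p arm (log2 -10.34 ± 0.16). miR-27b (log2 -9.31), miR-301a (-8.37), miR-488 (-8.32) and miR-101a (-7.95) completed the 3p end. With a minor arm of a few reads, such a ratio rests on those few reads, and for miR-143 the SD of the log2 ratio over the libraries was 0.74, against a median of 0.26 over all 161.

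A small group of precursors gave similar reads from both arms. The ratio was within 2-fold in 20 precursors, and 6 were not called. Without library 25, 27 or 51 in turn, 11, 10 and 9 were not called, and 12 without the library block. Of the 6, miR-384, a brain miRNA, is the most abundant, and its arms are shown because neither led.
miR-384-5p: uGUAAACAauuccuaggcaaugu
miR-384-3p: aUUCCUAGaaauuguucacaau
The 5p arm of miR-384 had 1354, 1817 and 1364 reads and its 3p arm 1096, 1942 and 1241 reads in libraries 25, 27 and 51, with the 3p arm higher in library 27 alone (log2 0.11 ± 0.12; edgeR quasi-likelihood adjusted p = 0.351). miR-7a, a neuronal and endocrine miRNA, had 364, 440 and 341 reads on the 5p arm and 312, 404 and 327 on its 3p arms (log2 0.14 ± 0.13; adjusted p = 0.320 by edgeR's quasi-likelihood test). The others not called were miR-539 (log2 -0.05), miR-339 (-0.17), miR-376a (-0.26) and miR-212 (-0.57), each with under 300 reads in the mean. With TMM scaling over the arm columns, all 6 were called toward the 3p arm, and the ratios of miR-384 and miR-7a turned to log2 -0.53 and -0.51. A p above the threshold does not show that the arms were equal. miR-708 and miR-151 passed the test by a small margin toward the 3p arm, both at log2 -0.32 ± 0.12 (edgeR quasi-likelihood adjusted p = 0.0139 and 0.00998). Both lost the call without library 25 (edgeR quasi-likelihood adjusted p = 0.163 and 0.0654) and without library 51 (adjusted p = 0.0727 and 0.0710). miR-136 also leaned to the 3p arm (log2 -0.87 ± 0.11), and miR-106b to the 5p arm (log2 0.95 ± 0.13).

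The direction for miR-129 depends on how its copies are counted. RefSeq places its 5p sequence in 2 hairpins, and its 3p arm has 2 names, which are shown because the shorter is the start of the longer.
miR-129-5p: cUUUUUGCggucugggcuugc
miR-129-1-3p: aAGCCCUUaccccaaaaag
miR-129-2-3p: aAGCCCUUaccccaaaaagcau
The 5p arm had 1802, 2336 and 1677 reads. miR-129-1-3p had 1399, 2340 and 1212 reads and miR-129-2-3p had 1399, 2341 and 1212, so the same reads appear to be listed under both names. Summed as separate names the 3p arms led (log2 -0.72 ± 0.12; edgeR quasi-likelihood adjusted p = 7.04e-07), and counted once the 5p arm led (log2 0.27, adjusted p = 0.0289). The arm of miR-129 is therefore uncertain. Identical counts in every library were also found for let-7c-2-3p and let-7a-1-3p, which have the same sequence, with 222, 296 and 243 reads each. They were also found for miR-3084d, miR-3084b-3p and miR-3084a-3p, with 15, 18 and 12 reads each. miR-7a-2-3p and miR-26b-3p had 79, 86 and 87 reads each, and miR-1b and miR-1247-3p had 3, 5 and 2 each.

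The ratio was larger in precursors with more reads. The median ratio of the major to the minor arm was 4.80 for the 38 precursors with 20 to 200 reads in the mean, 9.52 for 45 with up to 1000 and 24.5 for 41 with up to 10000. It was 170 for the 37 precursors with more. A small number of reads limits how large a ratio can be seen, and its part in this order was not tested. The larger arm was the 5p arm in 19 of 38, 24 of 45, 20 of 41 and 26 of 37 precursors of these classes.

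Members of a family mostly led with the same arm. Of 18 families with at least 2 such precursors, 12 were led by the 5p arm in all members. The 3 families miR-148/miR-152, miR-29 and miR-130/miR-301 were led by the 3p arm in all. Over all 161 precursors the 5p arm was higher in 54.0% and the 3p arm in 42.2%, and several of these families have only 2 such precursors. Whether members of a family share the arm more often than unrelated precursors was not tested. All 9 precursors of the let-7/miR-98 family led with the 5p arm, from 2.70-fold in let-7d to 625-fold in let-7g. let-7d had 3899, 3905 and 4044 reads on the 5p arm and 1391, 1475 and 1532 on the 3p arm, a far smaller ratio than its relatives. The 5 miR-30 precursors were led by the 5p arm from 12.3-fold in miR-30e to 158-fold in miR-30b, and the miR-29 precursors by the 3p arm from 10.1-fold in miR-29b to 155-fold in miR-29a. The miR-25/miR-92/miR-363 family was the one with called members in both directions. miR-32 had 184, 261 and 224 reads on the 5p arm and 11, 10 and 10 on the 3p arm. miR-25 had 38, 42 and 66 reads on the 5p arm and 10151, 11626 and 12788 on the 3p arm, and miR-92a had 113, 108 and 131 reads on the 5p arm and 4269, 4118 and 4419 on the 3p arm. In the miR-376 and miR-132/miR-212 families the called members led with the 3p arm and the other, miR-376a or miR-212, was not called. Vessel miRNAs differed in how far 1 arm led. miR-143, above, had the largest ratio of all toward the 3p arm. miR-126a, of endothelium, had 5667, 7655 and 5991 reads on the 5p arm and 1674, 1989 and 1760 on the 3p arm, 3.54-fold more on the 5p arm. miR-145, made with miR-143 in mural cells, had 118, 214 and 144 reads on the 5p arm and 54, 68 and 42 on the 3p arm.

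The first base of the arms was compared as a description in the 134 precursors with a single name and a sequence for each arm. The major arm here is the higher one by the fitted ratio alone. Precursors that were not called, such as miR-384 and miR-212, are thus included. The major arm began with U in 70 precursors (52.2%) and the minor arm in 22 (16.4%), and the major arm began with C in 21 and the minor arm in 44. Among the 74 precursors with a ratio over 10-fold, the major arm began with U in 47 (63.5%) and the minor arm in 12 (16.2%). Among the 60 with smaller ratios, it did in 23 (38.3%) and 10 (16.7%). The difference in U was seen on both sides of the hairpin: where the 5p arm led, U began 41 of 74 major and 12 of 74 minor arms, and where the 3p arm led, 29 of 60 major and 10 of 60 minor arms. The first 4 bases held more A and U in the major arm in 59 precursors, the same number in 42, and more in the minor arm in 33. This count was uneven between the sides: it was 26, 24 and 24 where the 5p arm led, and 33, 18 and 9 where the 3p arm led. miR-143-3p, with the largest ratio on the 3p side, begins with U, and miR-22-3p and miR-181a-5p, which also led by 100-fold or more, begin with A. The miR-181a precursors are not among the 134, since copies of their 3p arm were summed.
miR-143-3p: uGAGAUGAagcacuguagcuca
miR-22-3p: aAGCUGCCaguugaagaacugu

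The 3 libraries differed by more than counting error for most miRNAs. Over the 379 names with a mean of at least 20 reads, the median coefficient of variation (CV) of CPM was 13.5%, against 6.25% from counting alone, and 316 of the 379 exceeded their counting value. The median CV was 18.7% for the 112 names with up to 100 reads, 12.4% for 151 names with up to 1000, 12.6% for 75 names with up to 10000 and 9.28% for the 41 names above. Counting alone would give 14.2%, 6.28%, 2.17% and 0.534% in these classes, so that in the higher classes more reads did not bring the spread to the counting level. Chi-square per degree of freedom, over all listed names with a read in either library, was 218 for libraries 25 and 27. It was 150 for 25 and 51, and 223 for 27 and 51. Over the 379 names, the median difference between 2 libraries was 0.22, 0.22 and 0.24 on the log2 scale for the same pairs. Of them 11, 8 and 16 names differed more than 2-fold. No library stood apart for most of the names. Among the 116 names with a mean of at least 1000 reads, the library farthest from the other 2 was library 25 in 29, library 27 in 49 and library 51 in 38.

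**Figure D4:**
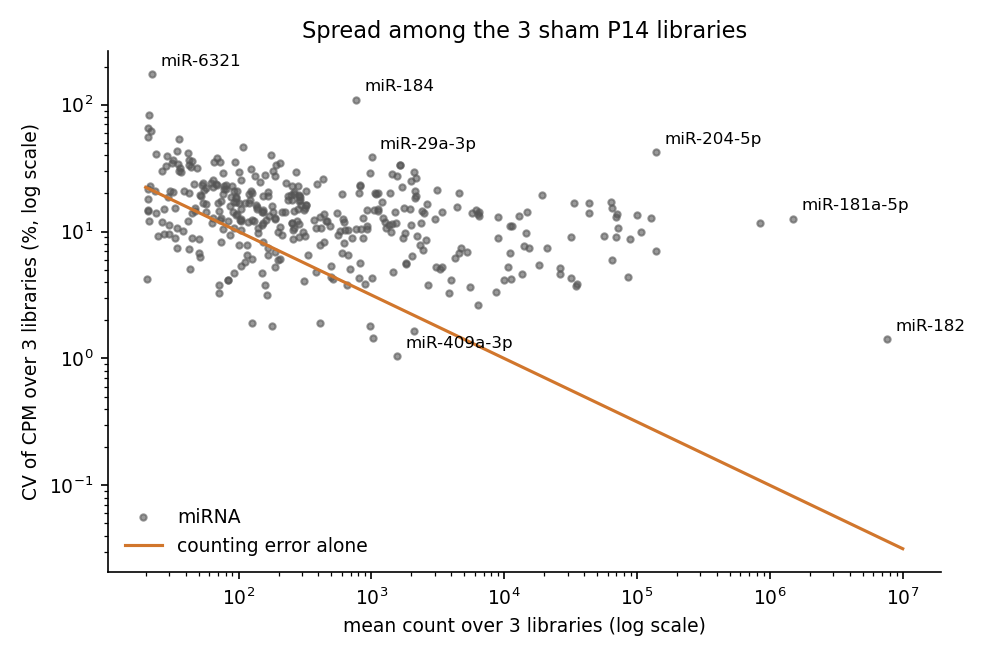
Coefficient of variation of CPM over the 3 sham P14 libraries (vertical axis, percent on a log scale) against the mean count (horizontal axis, log scale), 1 point per miRNA with at least 20 reads in the mean, with a line for counting error alone. miR-182 has the highest count and a value of 1.41%, and miR-204-5p stands at 42.1%.

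Among the names with a mean of at least 1000 reads, miR-204-5p varied most. It had 5900 CPM in library 25, 14520 in library 27 and 13987 in library 51 (CV 42.1%), with library 25 below both others. miR-29a-3p, known from glia and as a repressor of collagens, had 91.5, 108 and 47.2 CPM in libraries 25, 27 and 51 (CV 38.4%), with library 51 the lowest. The miR-129 3p names (CV 33.3% each), miR-335 (29.4%) and miR-384-3p (28.2%) came next. In miR-129 and miR-384-3p library 27 was the highest, and in miR-335 library 51 was the lowest, with 193, 207 and 114 CPM. The relatives of miR-29a had the same order of libraries: miR-29c-3p had 184, 224 and 129 CPM and miR-29b-3p had 100, 165 and 59 reads. The lowest values were those of miR-409a-3p (CV 1.04%), miR-182 (1.41%), miR-128-3p (1.45%) and miR-434-5p (1.63%). Counting alone would give 2.53% for miR-409a-3p, 3.12% for miR-128-3p and 2.19% for miR-434-5p, so these are below what 3 libraries can resolve. miR-182 makes up most of the total by which it is scaled, which limits how far its CPM can vary. In 105 of the 116 names the highest library was less than 1.5-fold above the lowest.

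The variation of the 5p and 3p arms between libraries was set side by side. For the 57 precursors with at least 100 reads in the mean on each arm, the log2 ratio between 2 libraries was taken for the 5p and for the 3p arm. Across precursors, Pearson's r was 0.340 for libraries 25 and 27, 0.586 for 25 and 51, and 0.487 for 27 and 51, with Spearman's rho of 0.223, 0.584 and 0.410. These are descriptions over precursors, which are not independent replicates and share the same libraries and totals. In miR-29c both arms were lowest in library 51, with 8.55, 10.5 and 5.66 CPM on the 5p arm and 184, 224 and 129 CPM on the 3p arm in libraries 25, 27 and 51. In miR-99a, both arms were likewise lowest in library 51, with 127, 163 and 92.8 CPM on the 5p arm and 11.9, 12 and 6.49 CPM on the 3p arm. In miR-181a the arms had different orders, with 127707, 107015 and 137778 CPM on the 5p arm, lowest in library 27, and 1114, 1173 and 1436 CPM on the 3p arms, lowest in library 25.

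**Figure D5:**
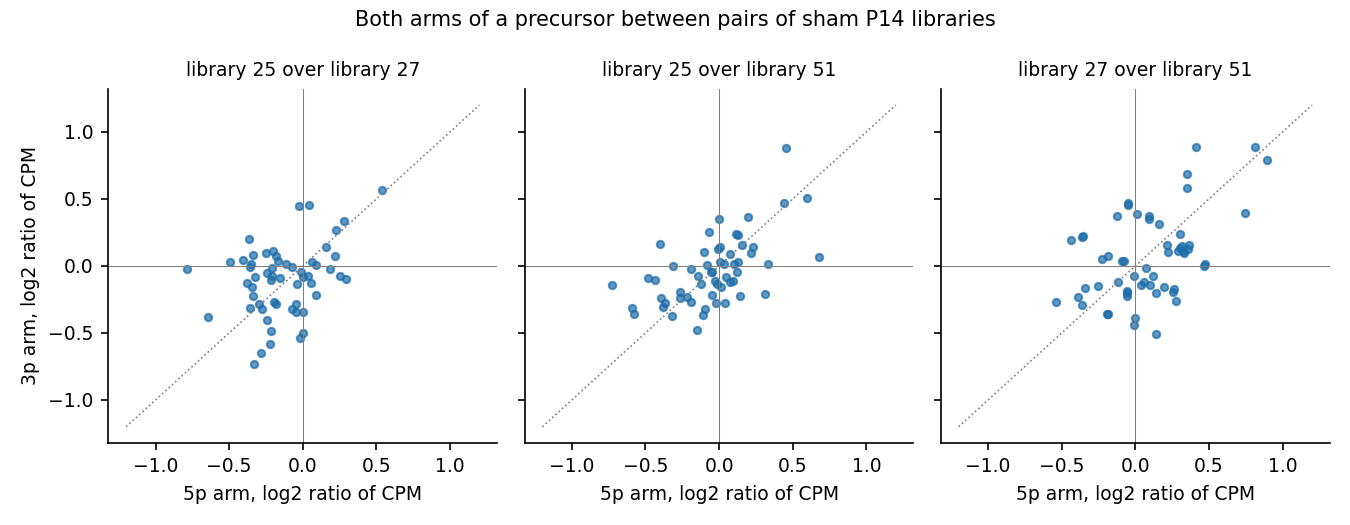
Log2 ratio of CPM between 2 libraries for the 5p arm (horizontal axis) and the 3p arm (vertical axis) of the 57 precursors with at least 100 reads in the mean on each arm, 1 panel per pair of libraries, with a dotted line where both ratios are equal. Pearson's r is 0.340, 0.586 and 0.487 from left to right.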

How the data were processed

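The authors deposited whole-number read counts per mature miRNA, without normalization, for 6 libraries in each of 2 tables, per the file headers. limma is named without a version in the submitters' processing notes. Not given in the sources used here are the trimming, the aligner, the counter, the annotation, the genome build and any rule for leaving out low counts. Reads were 50 bp single-end, per the labels' protocols, and molecular identifiers are not mentioned there.

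The columns are headed by library codes alone. Codes 11, 12 and 38 are in both tables, where 1395 of 1395 counts are equal, and so belong to OIR P14, which is in both comparisons; codes 25, 27 and 51 stand only in the P14 table and were taken as sham P14. Which code is which numbered sample is not given, so labels' replicate numbers pair nothing here; the block in the arm test is the library that holds both arms.

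Counts were divided by the library total for shares and CPM. Arms were tested with edgeR 4.0.16 in R 4.3.3 (quasi-likelihood, library as block, both arms offset by the library total, 2 residual degrees of freedom, a biological coefficient of variation of 10.3%, mean summed count of at least 20, which removed none of the 161, adjusted p under 0.05). Alternatives used limma 3.58.1 and DESeq2 1.42.0. On simulated data with 80 of 161 precursors changed, over 10 draws, the arm test found 88.6% of the differences of 1.5-fold, 98.6% of those of 2-fold and 100% of those of 4-fold, and 2.05% of its calls were false. In this simulation both arms started from the precursor's mean count, with a library effect common to the arms and a common dispersion for all precursors. These rates therefore need not hold for the data, where a minor arm can have few reads. Tables were made in Python 3.11.15. Sequences were matched to RefSeq (GRCr8) by name. Named are the 20 most abundant miRNAs and 10 most abundant families, the 8 most abundant precursors, the 6 largest, 6 smallest and 6 most even arm ratios over 1000 reads, the 6 most and 4 least variable names, the lowest, the markers, identical counts and members that go against their family. Others, given as examples, were chosen after their values were seen. Members, lists and tests were chosen with earlier results of these data known.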

Additional observations from a re-analysis of the deposited data

How the results depend on the processing

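Arm ratios that changed sign under any alternative run were all within 2-fold. Leaving out library 25, 27 or 51 gave 11, 10 and 9 precursors with no call, against 6 with all. Without the library block (the arms of a library then not paired) and with DESeq2, 12 and 11 had none. With a minimum of 200 reads 3 had none, since the others of the 6 have lower counts and were not tested. Among the 120 called precursors that this minimum kept no call was lost, and no call was gained. Leaving out a library gave 86 5p-led and 64 to 66 3p-led precursors, against 87 and 68. Calls lost under these settings were of precursors with log2 ratios of at most 0.78 in size, among them miR-708 and miR-151. TMM scaling over the arm columns, which assumes that most precursors are balanced, moved the median log2 ratio to 0.70, against 1.35, and gave 82 5p-led and 75 3p-led precursors. Under it all 6 uncalled precursors were called, miR-384 turned to -0.53, miR-7a to -0.51 and the called miR-369 turned direction; the 4 calls it lost were of ratios of at most 1.15 on the log2 scale. Small values changed sign for miR-539 (0.027 without library 25) and miR-339 (0.083 without library 51), and for miR-129 with its near-identical names counted once (0.27), an alternative added after seeing the data. Without miR-182 in the total, miR-181a-5p made 33.8% and miR-183-5p 19.0%, and 2, 28 and 129 names held 50%, 90% and 99% of reads on average. The median CV was 12.9% without miR-182, 14.8% with no minimum, 11.2% with a minimum of 1000 reads, and 10.6% to 11.6% over pairs of libraries. The seed of miR-30a-5p made 1.57%, against 2.46% for the miR-30 family by name; it holds miR-384-5p and leaves out unmatched names and the 3p arms. Minor arms of few reads limit the ratios, and reads compare arms only up to ligation and sequencing bias. The causes of these changes were not tested.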

Other observations

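Neighbouring hairpins were joined where RefSeq (GRCr8) places them within 10000 bp, and their listed names, both arms included, had very unequal reads. The cluster of 31 hairpins from Mir379 to Mir410, in the imprinted region that also holds miR-127, had 50 listed names and 0.255% ± 0.00950 of the reads, with the highest name 1106-fold above the lowest. The lowest of these names, miR-300-5p, is a minor arm, with 6, 12 and 9 reads in libraries 25, 27 and 51. The 3p arm of its hairpin had 2270, 2356 and 1940 reads, so the fold compares names and not hairpins. The group from Mir770 to Mir136, with miR-127, miR-434 and miR-136, held 1.18% ± 0.0686. The miR-17 to miR-92a cluster of 6 hairpins, known from proliferating cells, held 0.0677% ± 0.00396, and 3 of its 11 names also come from hairpins elsewhere.

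Reads by suffix were 32.0% ± 0.954 for 195 names of the 5p arm, 4.49% ± 0.220 for 223 names of the 3p arm and 63.5% ± 0.897 for 47 names without one. Apart from miR-182, the names without a suffix made 0.660% ± 0.0243 of the remaining reads, led by miR-486 with 13685, 14414 and 12774 reads. Without miR-182 the 5p names held 87.1% ± 0.715 and the 3p names 12.2% ± 0.697.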
